A study of Mus musculus with 18 samples.

Results

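The genes described here are 10 transcription factors that drive or mark mesenchymal transition: Snai1, Snai2, Zeb1, Zeb2, Twist1, Twist2, Prrx1, Scx, Sox9 and Runx1. They were chosen by name and not by a measured value, but earlier results of these data were known when the choice was made. The names were looked up in a table of 55450 genes. Of these genes, 21161 passed a filter on low counts and were tested, and all 10 factors were among them. Reads were counted in mouse embryonic fibroblasts (MEF), a fibroblast culture from a cell bank, in 6 groups of 3 libraries. In every group the cells had been transfected with a plasmid with Lipofectamine. The empty vector was pcDNA3 alone. The Col1a1-miR-29b plasmid carried EGFP and human miR-29b-1 behind a rat Col1a1 promoter, which is active in cells that make collagen. The CMV-miR-29b plasmid had the CMV promoter in its place, which is active in most cells. Both miR-29b plasmids also carried mRFP1 behind an SV40 promoter, which the empty vector lacked. Plasmids were dosed by moles, so the larger Col1a1-miR-29b plasmid was added at a higher DNA mass than the CMV-miR-29b plasmid. The effect of miR-29b therefore cannot be told apart from that of the reporters or of plasmid size and DNA mass. With each plasmid, one group received 20 ng/ml TGF-β for 24 h, from 6 h after transfection, and the other did not.

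Snail (Snai1, Snai2) and Zeb (Zeb1, Zeb2) proteins are zinc finger repressors that bind E-boxes and silence epithelial genes such as Cdh1. Twist1, Twist2 and Scx are basic helix-loop-helix factors, which bind DNA together with E proteins and are held back by Id proteins. Prrx1 is a homeobox factor of limb and connective tissue mesenchyme, Sox9 directs cartilage formation, and Runx1 binds DNA together with Cbfb. TGF-β is a known inducer of several of them, and fibroblasts, being mesenchymal already, express many of them without it.

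Total counts per library ranged from 65898017 to 80332633. Reads of the mouse miR-29b-1 gene, a check of the plasmids, were 0 in all empty vector libraries, 0 to 1 with Col1a1-miR-29b, 2 to 6 with Col1a1-miR-29b and TGF-β, and 110 to 309 with CMV-miR-29b over both treatments. These are reads of poly(A) RNA and do not measure the mature miRNA. Of 9 fibroblast markers, 7 passed the low-count filter. Thy1 (0 to 8 counts) and Lum (0 counts in every library) were absent or nearly so. Of 9 epithelial markers, the defining gene Epcam had 0 to 4 counts and Cdh1 had 0 to 40, while Krt19 had 2637 to 6650. The labels do not state which libraries of a group came from separate cultures, while the methods speak of repeated experiments for each group, so the tests measure the spread between libraries, part of which may be technical. In RNA from bulk cultures, fewer cells that express a gene and less RNA per cell cannot be told apart.

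The sequence that the miR-29b plasmids were built to deliver is shown because it decides which transcripts hold a match to its seed. It is printed from RefSeq (GRCm38.p6), 5′ to 3′, with the seed, bases 2 to 8, in capitals.
mmu-miR-29b-3p: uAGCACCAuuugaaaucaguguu
The mature miR-29a-3p and miR-29c-3p share this seed. The longest annotated 3′ UTR of each factor (GENCODE M21, GRCm38) was searched for the complement of the seed, TGGTGCT, and for its last 6 bases followed by A, GGTGCTA, on the transcript strand only. A match stood in the 3′ UTR of 1 of the 10, Prrx1, against 16% of 21007 protein-coding genes searched in the same way. The lengths searched ran from 329 bases in Scx to 4941 bases in Zeb2. The Prrx1 match began at base 3645 of its 4891-base 3′ UTR and lies on the minus strand at chr1:163254095-163254123, with the match in capitals.
Prrx1: ggtcttggtcaTGGTGCTgctgacatctg
A match is a description of the letters and does not show a site in use.

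The promoter table from RefSeq (GRCm38.p6) held 6 of the 10 factors, namely Snai1, Zeb2, Twist1, Twist2, Prrx1 and Runx1. It gave 4 promoters for Zeb2, 2 for Runx1 and 1 for each of the others. The 250 bases before each start were searched on both strands for CACCTG, the E-box that Snail and Zeb proteins bind. It occurred in 17.2% of 32851 promoters in the table, a share counted per promoter and not per gene. Among these factors it occurred once in Snai1 and once in the upstream one of 2 Runx1 promoters. The pair is shown because both genes were higher with TGF-β when averaged over the plasmids, with the match in capitals (CAGGTG on the other strand). Scx and Sox9, which were also higher, had no promoter in the table and were not searched. The Snai1 promoter lies on the plus strand at chr2:167537945-167538194 and that of Runx1 on the minus strand at chr16:92826075-92826324.
Snai1: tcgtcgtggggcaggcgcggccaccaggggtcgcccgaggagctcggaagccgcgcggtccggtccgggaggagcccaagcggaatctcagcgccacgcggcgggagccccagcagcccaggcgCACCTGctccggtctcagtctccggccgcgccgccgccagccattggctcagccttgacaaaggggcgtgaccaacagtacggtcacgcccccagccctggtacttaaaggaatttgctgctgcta
Runx1: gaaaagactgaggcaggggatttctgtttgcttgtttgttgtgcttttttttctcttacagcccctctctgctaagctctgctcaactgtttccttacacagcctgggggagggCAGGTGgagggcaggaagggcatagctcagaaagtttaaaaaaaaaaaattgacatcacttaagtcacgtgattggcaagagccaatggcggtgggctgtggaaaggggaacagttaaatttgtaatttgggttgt
The Smad motif CAGAC, present in 42.2% of promoters, occurred once each in Prrx1 and Twist1. The AP-1 motif TGANTCA, present in 6.75%, occurred in 1 of the 4 Zeb2 promoters, which held 2 matches, and the motif TGTGGT of Runx proteins, present in 14% of promoters, in none of the 6 factors.

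Levels were compared between genes in FPKM, which is scaled for transcript length and library total. In empty vector cells without TGF-β, mean FPKM (n = 3) ran from 12.3 for Snai1 to 0.865 for Runx1. The order from high to low was Snai1, Snai2 (11.9), Twist1 (10.4), Twist2 (7.88), Prrx1 (5.17), Scx (3.98), Zeb1 (3.68), Zeb2 (2.45), Sox9 (2.2) and Runx1. Neighbours in this order had overlapping libraries except at 2 places: every Zeb1 library was above every Zeb2 library, and every Sox9 library was above every Runx1 library. With TGF-β, Snai1 was still the highest, at 14.9 FPKM, followed by Snai2 (11.1) and Twist1 (9.36). Scx had moved to 8.98 FPKM, between Twist1 and Twist2 (5.24), and its libraries overlapped those of Twist1 and not those of Twist2. Runx1 was still the lowest, at 2.31 FPKM, with libraries that overlapped those of Zeb2 (2.58).

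Normalised counts scaled to the library total (CPM, with edgeR's TMM factors) were used to compare each gene between groups. TGF-β raised Scx, Sox9 and Runx1 with each of the 3 plasmids, by 2.03-fold to 2.87-fold. Snai1 rose by 1.22-fold in the average over the plasmids. Snai2, Zeb1, Zeb2, Twist1, Twist2 and Prrx1 did not pass the test. In empty vector cells 3 of the 10 factors passed an adjusted p of 0.05, where 5.88% of all tested genes did. The count was 3 of 10 in Col1a1-miR-29b cells (4.32% of all genes) and 3 of 10 in CMV-miR-29b cells (4.95%), and these were the same genes, Scx, Sox9 and Runx1. Averaged over the plasmids, 4 of 10 passed, all of them higher, where 13.7% of all genes passed in either direction. The median log2 fold change of the 10 was 0.155 in the average, against −0.00539 for all tested genes.

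**Figure D1:**
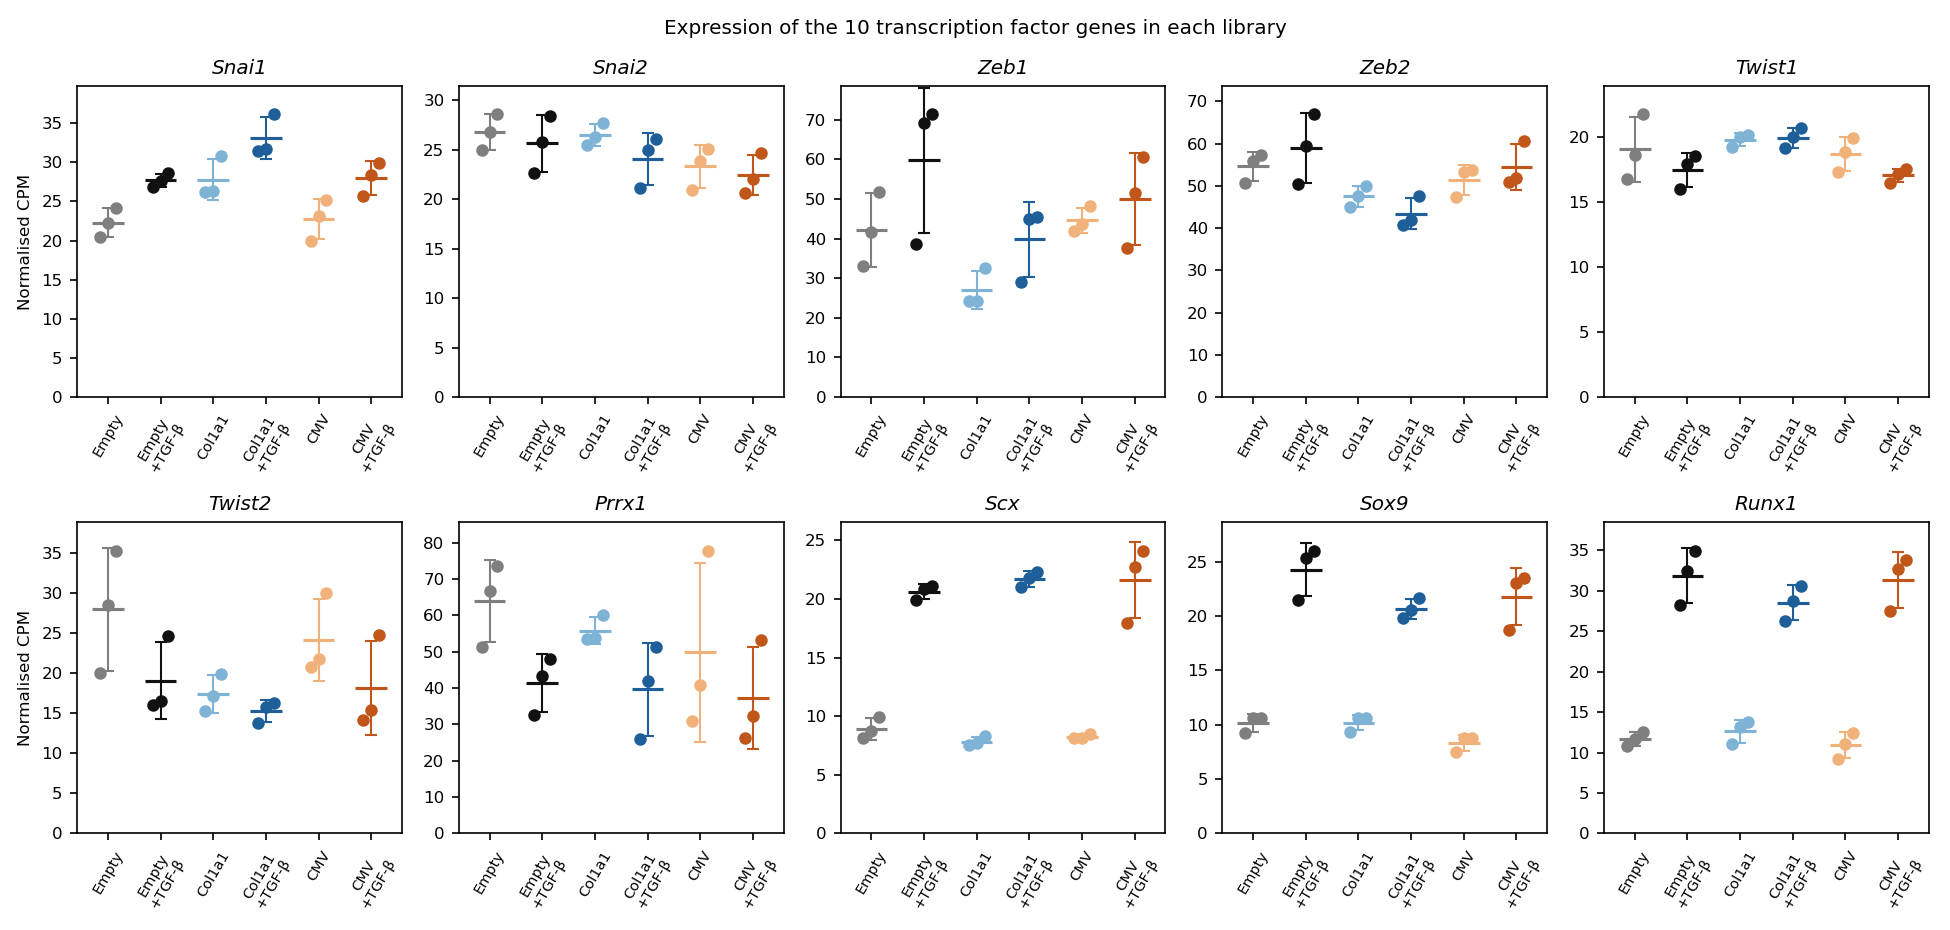
Normalised CPM (vertical axes, from 0) of the 10 genes in each of the 18 libraries, by plasmid and TGF-β. Points are libraries in order of value, horizontal lines are group means and bars are 1 SD (n = 3). In Scx, Sox9, Runx1 and Snai1 every treated library lies above every untreated library of the same plasmid, while Prrx1, Twist2 and Zeb1 spread widely within groups.

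Scx (scleraxis, chromosome 15 from 76457452 to 76459458) marks tendon progenitors and activates collagen genes. In empty vector cells it had 8.10, 8.72 and 9.96 CPM without TGF-β and 19.9, 20.9 and 21.1 CPM with it. In Col1a1-miR-29b cells the values were 7.57 to 8.28 CPM without and 20.98, 21.77 and 22.32 CPM with TGF-β. In CMV-miR-29b cells they were 8.1, 8.1 and 8.47 CPM without and 17.9, 22.7 and 24.1 CPM with it. All 9 treated libraries were above all 9 untreated libraries. The log2 fold change was 1.21 (SE, standard error, 0.102, edgeR adjusted p = 1.37e-06) with the empty vector, 1.47 (adjusted p = 3e-07) under Col1a1-miR-29b and 1.39 (adjusted p = 3.1e-07) under CMV-miR-29b, with the same SE. Scx lies inside Bop1, a gene of ribosome biogenesis on the opposite strand with 9310 to 12753 counts per library. The libraries were made with a stranded kit, but whether the counting used strand is not given in the sources used here. Without strand, reads from the 2 genes cannot be told apart. Bop1 itself had an averaged log2 fold change of 0.12 (SE 0.0325, edgeR adjusted p = 0.0203), against 1.36 (SE 0.0589, adjusted p = 1.7e-10) for Scx.

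Sox9 (chromosome 11 from 112782224 to 112787760) is the factor that directs chondrocyte differentiation and activates Col2a1. Its CPM in empty vector cells was 9.20, 10.6 and 10.7 without TGF-β, against 21.46, 25.32 and 25.99 in its presence. In Col1a1-miR-29b cells it was 9.37, 10.6 and 10.6 without and 19.8, 20.6 and 21.6 with TGF-β. In CMV-miR-29b cells it was 7.45, 8.76 and 8.76 without and 18.75, 23.02 and 23.52 with TGF-β. The lowest treated library, with CMV-miR-29b, stood far above the highest untreated library, with the empty vector. The log2 fold changes were 1.26 (SE 0.109, edgeR adjusted p = 1.85e-06), 1.02 (SE 0.108, adjusted p = 2.01e-05) and 1.39 (SE 0.109, adjusted p = 7.55e-07) with the empty vector, Col1a1-miR-29b and CMV-miR-29b. Averaged, the log2 fold change of Sox9 was 1.22 (SE 0.0627, adjusted p = 1.17e-09).

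Runx1 (chromosome 16 from 92601466 to 92826149, minus strand) is best known from blood formation and is also expressed in mesenchymal cells. Without TGF-β it had 10.8, 11.7 and 12.5 CPM in empty vector cells, 11.02, 13.14 and 13.77 in Col1a1-miR-29b cells and 9.19, 11.1 and 12.4 in CMV-miR-29b cells. With TGF-β it had 28.25, 32.4 and 34.96 CPM in empty vector cells, 26.3, 28.7 and 30.6 in Col1a1-miR-29b cells and 27.5, 32.7 and 33.9 in CMV-miR-29b cells. No treated library overlapped any untreated one. The log2 fold change was 1.45 (SE 0.125, edgeR adjusted p = 1.85e-06) with the empty vector, 1.17 (SE 0.125, adjusted p = 2e-05) for Col1a1-miR-29b, 1.52 (SE 0.126, adjusted p = 1.3e-06) with CMV-miR-29b and 1.38 (SE 0.0723, adjusted p = 1.44e-09) in the average. In FPKM, Runx1 was the lowest of the 10 factors in empty vector cells in both treatments, with libraries that overlapped those of Zeb2 when treated. Its smallest log2 fold change over the alternative settings was 0.65, with Col1a1-miR-29b and limma on log2(FPKM + 1), a scale that understates the change of a gene with low FPKM.

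Snai1 (Snail, chromosome 2 from 167538195 to 167542814) represses Cdh1 and is turned over quickly as a protein. It had 20.5, 22.2 and 24.1 CPM in empty vector cells without TGF-β and 26.9, 27.6 and 28.6 with it. In Col1a1-miR-29b cells it had 26.25, 26.34 and 30.79 CPM without and 31.4, 31.7 and 36.1 with TGF-β, and in CMV-miR-29b cells 19.97, 23.09 and 25.12 without and 25.63, 28.43 and 29.96 with it. The treated libraries were above the untreated ones with each plasmid, but the ranges of different plasmids crossed. The untreated Col1a1-miR-29b library at 30.79 CPM was above every treated empty vector library, while those at 26.25 and 26.34 CPM were below them all. The log2 fold change was 0.31 (SE 0.0974, edgeR adjusted p = 0.0776) with the empty vector, 0.25 (SE 0.0972, adjusted p = 0.215) with Col1a1-miR-29b and 0.30 (SE 0.0974, adjusted p = 0.104) with CMV-miR-29b, none past the threshold in edgeR. DESeq2 called it with the empty vector. Averaged over the plasmids it was 0.29 (SE 0.0562, adjusted p = 0.00202), higher with each of the 3 plasmids and past the threshold in every alternative run for this average.

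All treated libraries were above all untreated libraries of the same plasmid in 4 of the 10 factors (Scx, Sox9, Runx1 and Snai1) with each of the 3 plasmids. Over all tested genes, treated and untreated libraries did not overlap, in either direction, in 21% under the empty vector, 21.9% under Col1a1-miR-29b and 20.9% under CMV-miR-29b. With the empty vector and with Col1a1-miR-29b, Prrx1 did not overlap either, in the opposite direction, which makes 5 of 10 factors with these plasmids.

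**Figure D2:**
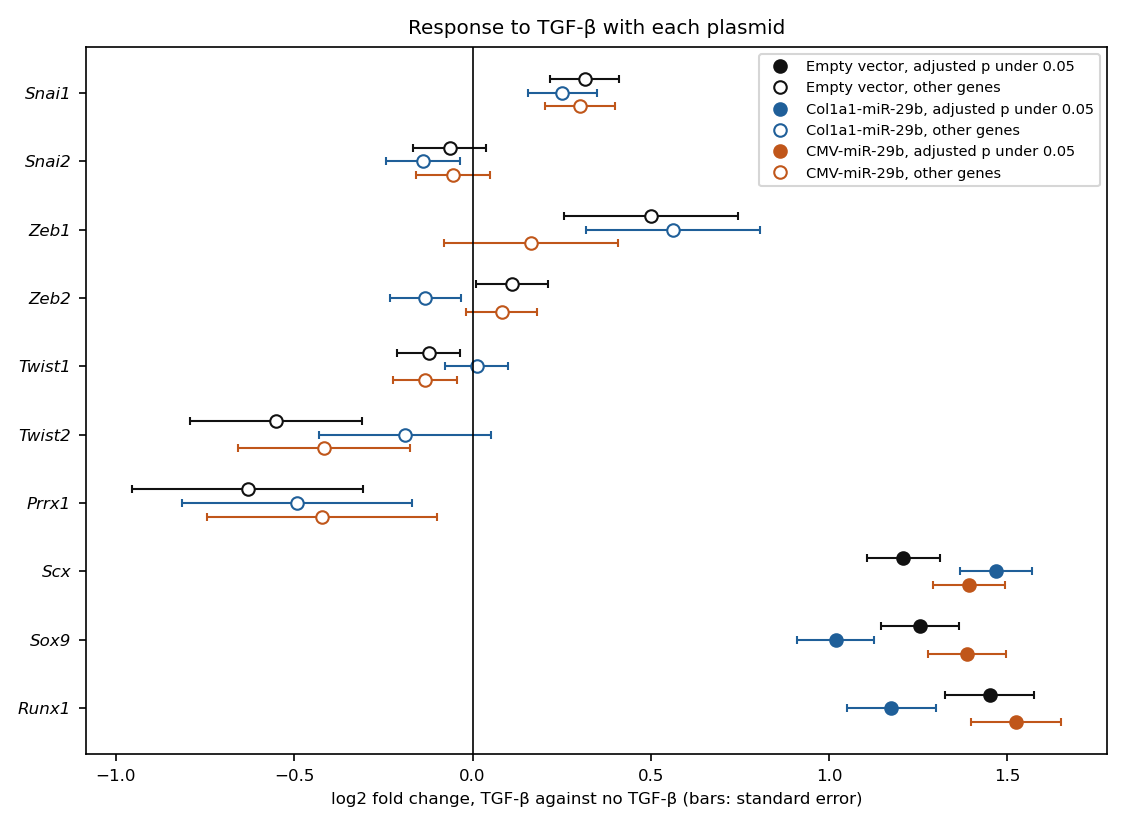
log2 fold change of each gene with TGF-β against no TGF-β (horizontal axis) for each plasmid, from edgeR, with bars of 1 standard error. Filled points passed an adjusted p of 0.05: they are Scx, Sox9 and Runx1 with all 3 plasmids, between 1.02 and 1.52.

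Prrx1 (chromosome 1 from 163245119 to 163313710, minus strand), whose 3′ UTR holds the seed match printed above, had 51.4, 66.7 and 73.7 CPM in empty vector cells without TGF-β and 32.53, 43.39 and 48.04 with it. In Col1a1-miR-29b cells it had 53.5, 53.8 and 60.2 CPM without and 25.9, 41.9 and 51.3 with TGF-β. In CMV-miR-29b cells it had 31.02, 40.92 and 77.81 CPM without and 26.3, 32.4 and 53.2 with it, 2 groups that overlapped. The spread among the untreated CMV-miR-29b libraries was the widest of any factor and group, with an SD of 49.4% of the mean. Over the 3 plasmids the averaged log2 fold change was −0.51 (SE 0.187, edgeR adjusted p = 0.0872), which did not pass. It passed without CMV-miR-29b replicate d, at −0.60 (adjusted p = 0.0366), and without CMV-miR-29b + TGF-β replicate e, at −0.63 (adjusted p = 0.0313).

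Twist2 (chromosome 1 from 91801461 to 91848028), a regulator of dermal and bone cell differentiation, had 20.1, 28.5 and 35.3 CPM in empty vector cells without TGF-β and 16, 16.6 and 24.7 with it. In Col1a1-miR-29b cells it had 15.3, 17.1 and 19.9 CPM without and 13.8, 15.8 and 16.3 with TGF-β, and in CMV-miR-29b cells 20.8, 21.8 and 30.1 without and 14.1, 15.5 and 24.8 with it. Treated and untreated libraries overlapped with every plasmid. Averaged over the plasmids, Twist2 had a log2 fold change of −0.39 (SE 0.139, edgeR adjusted p = 0.0846). It passed with DESeq2, at −0.39 (adjusted p = 0.0307), and in 3 fits that left out 1 library: without empty vector replicate d (−0.45), without empty vector + TGF-β replicate e (−0.47) and without CMV-miR-29b + TGF-β replicate c (−0.49).

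Twist2 overlaps Gm29100, an antisense gene whose reads cannot be told apart from its own if the counting ignored strand. Gm29100 was the gene most like Twist2 across the 18 libraries, and its libraries fell into 2 sets that cut across the empty vector and CMV-miR-29b groups. In 5 libraries it had 13.4 to 20.9 CPM and Twist2 had 24.7 to 35.3 CPM. In the other 13 libraries Gm29100 had 3.07 to 5.46 CPM and Twist2 had 13.8 to 21.8 CPM. The 5 libraries were empty vector replicates c and e, empty vector + TGF-β replicate e, CMV-miR-29b replicate d and CMV-miR-29b + TGF-β replicate c. These are the highest Twist2 libraries of their groups, and all 6 Col1a1-miR-29b libraries were among the other 13. Within the 13 other libraries the Pearson correlation of the log2 CPM of the 2 genes was 0.584, given as a description over libraries that also differ in treatment. The averaged log2 fold change of Gm29100 was −0.42 (SE 0.389, edgeR adjusted p = 0.592). Its part in the Twist2 values was not tested.

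**Figure D3:**
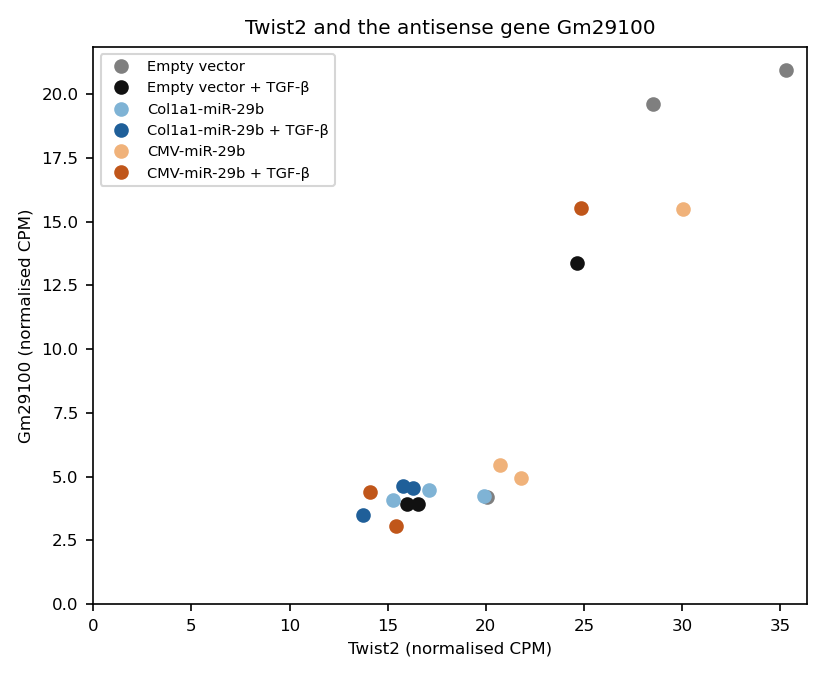
Normalised CPM of Twist2 (horizontal axis) and of the antisense gene Gm29100 (vertical axis) in the 18 libraries, coloured by group. In 5 libraries Gm29100 lies at 13.4 to 20.9 CPM, apart from the other 13 libraries at 3.07 to 5.46 CPM, and Twist2 is higher in them.

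Zeb1 (chromosome 18 from 5591860 to 5775467), a repressor of Cdh1 and of the miR-200 genes, also varied widely within groups. In empty vector cells it had 33.03, 41.77 and 51.83 CPM without TGF-β and 38.6, 69.2 and 71.4 with it. In Col1a1-miR-29b cells it had 24.2, 24.2 and 32.5 CPM without and 28.92, 44.99 and 45.53 with TGF-β, and in CMV-miR-29b cells 41.9, 43.8 and 48.1 without and 37.7, 51.6 and 60.6 with it. The groups overlapped with every plasmid, since the lowest library of each treated group lay within or below the range of its untreated group. For Zeb1 the averaged log2 fold change was 0.41 (SE 0.141, edgeR adjusted p = 0.0701). It passed with DESeq2, at 0.41 (adjusted p = 0.0211), and in 4 fits that left out 1 library: empty vector replicate d (0.47), empty vector + TGF-β replicate d (0.48), Col1a1-miR-29b + TGF-β replicate c (0.47) or CMV-miR-29b + TGF-β replicate e (0.46).

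The remaining 3 factors gave narrow intervals around 0 for the response to TGF-β. These intervals are normal approximations, somewhat narrower than the F tests imply. The averaged log2 fold change was −0.09 for Snai2 (Slug, chromosome 16 from 14705852 to 14709385), with a 95% interval of −0.203 to 0.0315 (not adjusted). It was −0.08 for Twist1 (chromosome 12 from 33957671 to 33959829), a factor of cranial mesoderm and limb, with an interval of −0.182 to 0.0194. For Zeb2 (chromosome 2 from 44983632 to 45117395, minus strand) it was 0.02, with an interval of −0.0933 to 0.133, and its sign turned with total-count scaling, with limma on log2 FPKM at both pseudocounts and in 4 fits without 1 library. The edgeR adjusted p values were 0.441, 0.38 and 0.897. Snai2 ran from 20.6 to 28.6 CPM over all 18 libraries and Twist1 from 15.99 to 21.71 CPM.

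Whether the plasmids changed the response to TGF-β was tested as a difference of the 2 responses. For Col1a1-miR-29b minus the empty vector, 0 of the 10 factors passed with edgeR, where 0% of all genes did, and none reached an unadjusted p of 0.05. DESeq2 also called 0 of the 10. The 95% intervals given next are normal approximations too, somewhat narrower than the F tests imply. The difference of log2 fold changes was 0.26 for Scx (95% interval −0.0179 to 0.538), −0.24 for Sox9 (−0.534 to 0.0603), −0.28 for Runx1 (−0.617 to 0.0654) and −0.24 for Zeb2 (−0.521 to 0.0337). For CMV-miR-29b minus the empty vector, DESeq2 again called 0 of the 10. So did edgeR, which called 0% of all genes, with none of the 10 at an unadjusted p under 0.05. The differences were 0.18 for Scx (−0.0933 to 0.463), 0.13 for Sox9 (−0.166 to 0.428), 0.07 for Runx1 (−0.268 to 0.414) and −0.34 for Zeb1 (−1.01 to 0.338). The rises of Scx, Sox9 and Runx1 were thus not shown to differ between either miR-29b plasmid and the empty vector. The responses under the 2 miR-29b plasmids were not tested against each other.

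The comparison of each miR-29b plasmid with the empty vector asks whether the factors moved with the miR-29b plasmids, reporters and DNA mass included. The single call was Zeb2, which was lower with Col1a1-miR-29b in the presence of TGF-β. With TGF-β, Zeb2 had 50.5, 59.4 and 66.9 CPM in empty vector cells, 40.7, 41.9 and 47.6 in Col1a1-miR-29b cells and 50.9, 51.8 and 60.6 in CMV-miR-29b cells. Without TGF-β it had 50.7, 55.9 and 57.2 CPM in empty vector cells, 45.03, 47.64 and 49.98 in Col1a1-miR-29b cells and 47.3, 53.4 and 53.7 in CMV-miR-29b cells. In both treatments every Col1a1-miR-29b library was below every empty vector library, and CMV-miR-29b libraries overlapped those of the empty vector. The share of all genes that separate in this way between plasmids was not counted. Between Col1a1-miR-29b and the empty vector, 21.5% of all genes without TGF-β and 26.1% with it had an unadjusted edgeR p under 0.05. With TGF-β the log2 fold change of Zeb2 with Col1a1-miR-29b was −0.44 (SE 0.1, edgeR adjusted p = 0.00927), 1 of 10 factors against 12.9% of all genes. The call was lost when the groups were compared alone (−0.45, adjusted p = 0.0674), with limma on log2(FPKM + 1) (−0.26, adjusted p = 0.0983) and with limma on log2(FPKM + 0.1) (−0.36, adjusted p = 0.0907). Without TGF-β the log2 fold change of Zeb2 was −0.20 (SE 0.1, adjusted p = 0.271). The 2 comparisons with TGF-β share their empty vector libraries, as do the 2 without it.

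Without TGF-β, edgeR called 0 of the 10 factors between Col1a1-miR-29b and the empty vector, where 6.27% of all genes were called, with 3 of the 10 and 21.5% of all genes at an unadjusted p under 0.05. The 3 were Snai1, with a log2 fold change of 0.32 (SE 0.0974, adjusted p = 0.0642), Zeb1 with −0.65 (SE 0.245, adjusted p = 0.132) and Twist2 with −0.68 (SE 0.241, adjusted p = 0.107). DESeq2 called all 3. For Twist2, 2 of the 3 empty vector libraries and 0 of the 3 Col1a1-miR-29b libraries in this comparison were among the 5 with high Gm29100, whose part in the difference was not tested. With TGF-β, Snai1 had a log2 fold change of 0.26 (adjusted p = 0.101), Zeb1 −0.59 (adjusted p = 0.137) and Sox9 −0.23 (adjusted p = 0.184) in the edgeR fit. The Zeb1 difference with TGF-β was the largest of the 10 in size and rested on libraries that spread widely. Without empty vector + TGF-β replicate d it was −0.83 and passed.

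With CMV-miR-29b, the plasmid with the most miR-29b-1 reads, edgeR and DESeq2 each called 0 of the 10 factors against the empty vector in either treatment. Over all genes edgeR called 1 gene without TGF-β (0.00473%) and 2 genes with it (0.00945%). Without TGF-β, 1 of the 10 factors had an unadjusted p under 0.05, Sox9, with a log2 fold change of −0.29 (SE 0.108, adjusted p = 0.819). Prrx1, the factor with the seed match, had the largest difference in size, −0.36 (SE 0.322, adjusted p = 0.987). It passed in no comparison of a miR-29b plasmid with the empty vector in edgeR or DESeq2. With TGF-β, 0 of the 10 had an unadjusted p under 0.05, and the largest difference in size was −0.26 in Zeb1 (SE 0.243, adjusted p = 0.755).

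**Figure D4:**
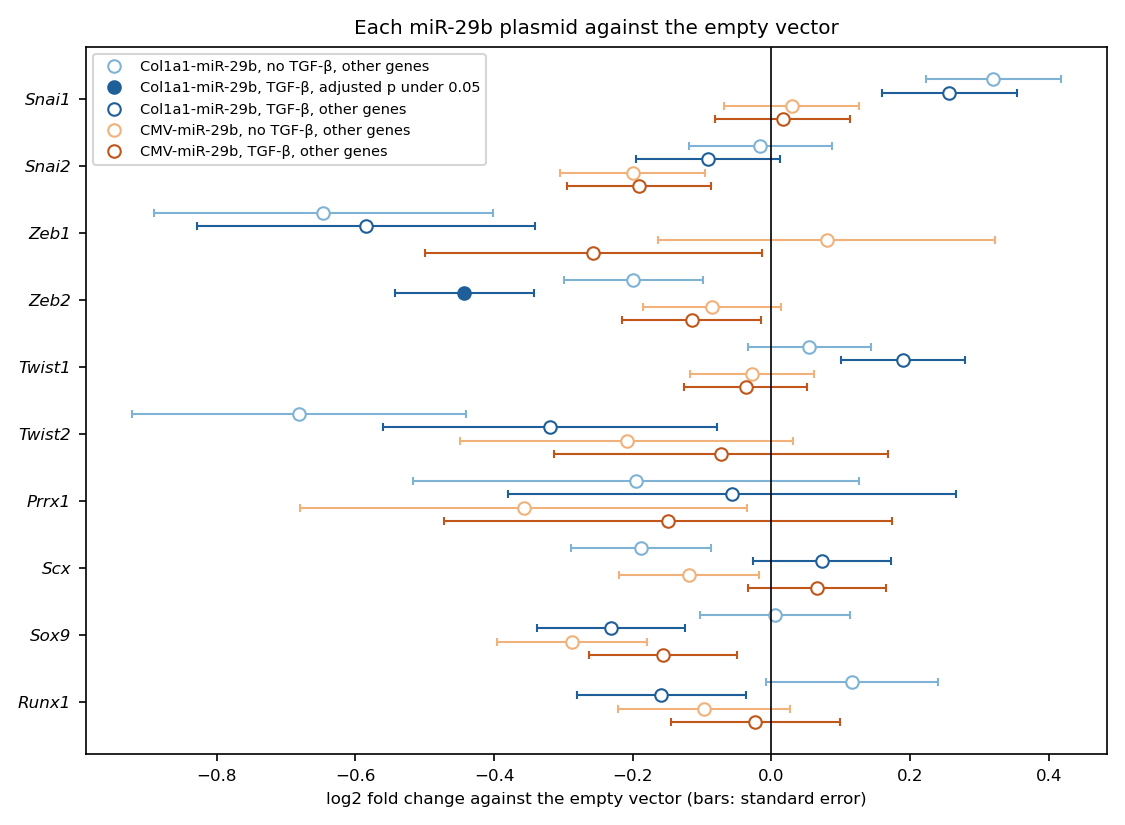
log2 fold change of each gene with a miR-29b plasmid against the empty vector (horizontal axis), with and without TGF-β, from edgeR, with bars of 1 standard error. The filled point, Zeb2 with Col1a1-miR-29b and TGF-β at −0.44, is the single one past an adjusted p of 0.05.

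Set against each other, CMV-miR-29b and Col1a1-miR-29b differed in 1.81% of all genes without TGF-β and in 1.93% with it, and in 0 of the 10 factors in either treatment (edgeR), with 3 of 10 at an unadjusted p under 0.05 in each, a level that 16.4% of all genes reached without TGF-β and 15.6% with it. Without TGF-β, Zeb1 was at a log2 fold change of 0.73 (SE 0.245, adjusted p = 0.141) and Snai1 at −0.29 (SE 0.0974, adjusted p = 0.138) in CMV-miR-29b cells relative to Col1a1-miR-29b cells. DESeq2 called Zeb1. With TGF-β, Zeb2 was at 0.33 (SE 0.1, adjusted p = 0.107), and DESeq2 called it.

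The partners that these factors need were measured too. Of 18 tested partners and regulators, 5 rose and 3 fell with TGF-β in the average (median log2 fold change 0.0712), where 7.83% of all tested genes rose and 5.86% fell. The 3 that fell were the Id genes Id3 (−0.54, SE 0.0471, edgeR adjusted p = 6.21e-07), Id2 (−0.54, SE 0.164, adjusted p = 0.0377) and Id1 (−0.32, SE 0.0785, adjusted p = 0.0114), whose products bind E proteins and keep them from Twist and Scx. Id3 had 37.7 to 46.1 CPM in untreated and 24.5 to 31.9 CPM in treated libraries, with no overlap. Cbfb, the partner of Runx1, rose by 0.17 (SE 0.0222, adjusted p = 4.44e-05), from 172 to 192 CPM untreated to 194 to 212 CPM treated. The E protein gene Tcf3 rose by 0.11 (SE 0.0326, adjusted p = 0.0297) and the corepressor gene Ctbp2, which Zeb proteins recruit, by 0.34 (SE 0.0447, adjusted p = 5.62e-05). The demethylase gene Kdm1a, recruited by Snail, rose by 0.10 (SE 0.027, adjusted p = 0.0179). Id1, Id2, Tcf3 and Kdm1a passed with no single plasmid, and Kdm1a was at −0.0047 with CMV-miR-29b. Untreated and treated libraries overlapped for Id2 (26.8 to 54.94 and 15.71 to 43.86 CPM) and for Id1 (15.1 to 23.7 and 12.74 to 19.35 CPM). In single plasmids the counts were 4 higher and 1 lower with the empty vector (3.88% and 2.01% of all genes), 1 and 1 with Col1a1-miR-29b (3% and 1.32%) and 1 and 1 with CMV-miR-29b (3.08% and 1.87%). Whether these counts differ between plasmids was not tested.

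Of 15 tested transcription factors of mesenchyme outside the 10, 7 rose and 1 fell with TGF-β (median 0.135), against 7.83% and 5.86% of all tested genes. Sox4, a known TGF-β target, rose by 1.20 (SE 0.0415, edgeR adjusted p = 1.25e-11), and Hmga2, a chromatin factor that activates Snai1 and Twist1 in other cells, by 1.025 (SE 0.103, adjusted p = 3.41e-06). Foxf2 rose by 0.68 (SE 0.0724, adjusted p = 6.05e-06) and Mkx, a tendon factor like Scx, by 0.57 (SE 0.0877, adjusted p = 0.000235). Osr1 fell by 0.46 (SE 0.0806, adjusted p = 0.000899). With single plasmids 5 rose in each, and 1 fell with CMV-miR-29b.

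Among 10 tested epithelial genes that Snail and Zeb proteins repress, 2 fell and 1 rose (median −0.0982), against 5.86% and 7.83% of all tested genes. Krt19 fell by 0.76 (SE 0.0479, edgeR adjusted p = 1.24e-08), from 63.2 to 83.1 CPM untreated to 36.8 to 50.5 CPM treated. Ocln fell by 0.75 (SE 0.181, adjusted p = 0.01) at a low level, 0.562 to 1.19 CPM untreated and 0.239 to 0.886 CPM treated. Krt8, which passed as higher, had 0 to 27 counts per library and 0 CPM in all untreated Col1a1-miR-29b and CMV-miR-29b libraries, so no fold is given. Neither Ocln nor Krt8 passed with any single plasmid. Cdh1, the best known target, had at most 40 counts in any library. The summed CPM of the 9 epithelial markers, nearly all of it Krt19, moved with TGF-β, from 64 to 83.8 CPM in untreated to 37.7 to 50.9 CPM in treated libraries, and its part in the rises of Scx, Sox9, Runx1 and Snai1 was not tested. The 4 endothelial markers summed to 0.936 to 1.85 CPM in untreated and 2.09 to 3.03 CPM in treated libraries. Their counts per library were 25 to 152 for Cdh5, 22 to 76 for Pecam1, 0 to 26 for Kdr and 0 to 19 for Tek. The 9 fibroblast markers summed to 1780 to 2630 CPM in untreated and 3510 to 5560 CPM in treated libraries. The part of the endothelial and fibroblast lists was not tested either. The macrophage list summed to 17.6 to 23.3 CPM over the libraries, with Cd68 at 613 to 1004 counts, Cd14 at 462 to 749 and Csf1r at 12 to 56. Its defining genes Ptprc, Itgam and Adgre1 had 0 to 25, 0 to 10 and 0 to 4 counts. The skeletal muscle list summed to 13.8 to 21.9 CPM, with Des at 951 to 1630 counts, Myh3 at 6 to 64, Myod1 at 0 to 8 and Myog at 0 to 14.

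Of 16 tested mesenchymal effector genes, 11 rose and 1 fell (median 0.71), against the same 7.83% and 5.86% of all tested genes. The largest rises were in Postn (3.77, SE 0.419, edgeR adjusted p = 9.28e-06), Acta2 (1.75, SE 0.0835, adjusted p = 4.89e-10), Col1a2 (1.29, SE 0.0557, adjusted p = 1.67e-10) and Col1a1 (1.14, SE 0.0462, adjusted p = 8.25e-11), which encode periostin, smooth muscle actin and the chains of type I collagen. S100a4 fell by 0.27 (SE 0.042, adjusted p = 0.000236). Of 7 tested tendon and cartilage targets of Scx and Sox9, 2 rose (median 0.245), against 7.83% of all tested genes. Col2a1, the cartilage collagen, rose by 1.22 (SE 0.156, adjusted p = 4.08e-05), from 0.808 to 1.97 CPM untreated to 1.85 to 3.77 CPM treated, and Fmod by 2.19 (SE 0.621, adjusted p = 0.0267) at no more than 0.899 CPM. Fmod passed with no single plasmid.

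Between Col1a1-miR-29b and the empty vector in the presence of TGF-β, where Zeb2 was lower, 5.31% of all genes were higher and 7.63% lower. Of the 16 mesenchymal effectors 7 were lower and 0 higher, and 2 of the 10 epithelial genes were lower and 0 higher. Of the 18 partners 5 were lower and 1 higher and of the 15 other factors 2 were lower and 2 higher.

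**Figure D5:**
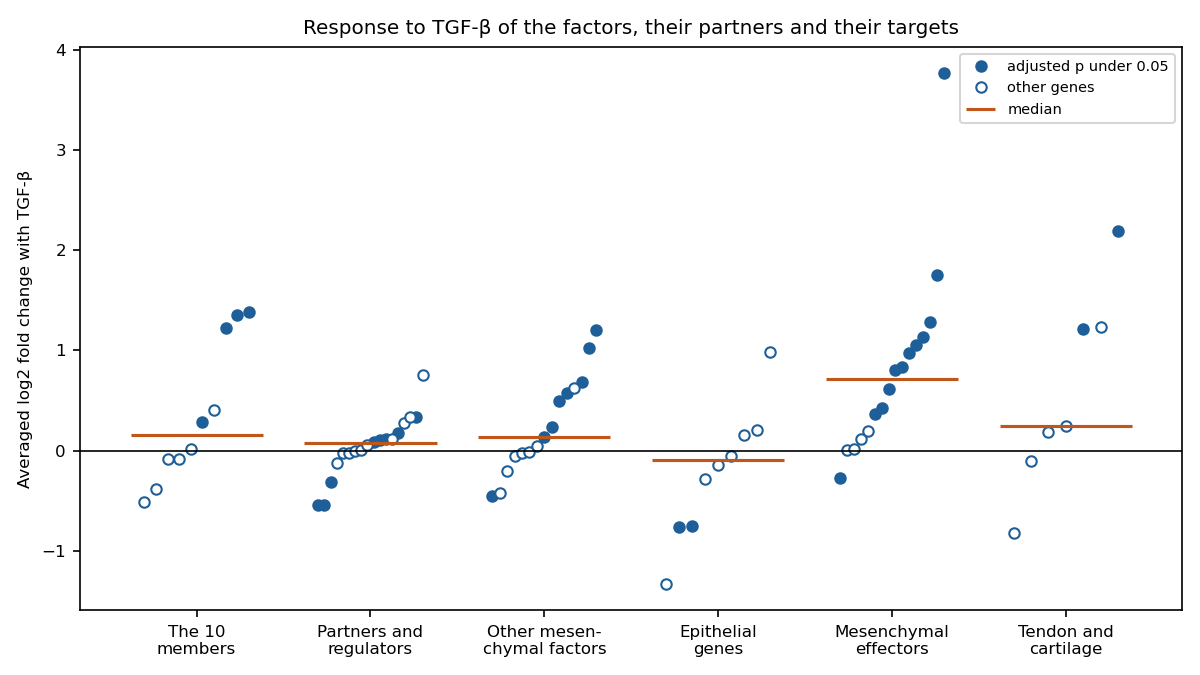
log2 fold change with TGF-β averaged over the 3 plasmids (vertical axis) of the 10 factors and of the tested genes of 5 related lists, in order of value within a list. Filled points passed an adjusted p of 0.05 and horizontal lines are medians. Krt8 is in its list's median but is not drawn, since its untreated libraries are at or near 0. The mesenchymal effectors have the highest median, 0.71, and the epithelial genes the lowest, −0.0982.

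The genes whose pattern was most like that of each factor were found by Pearson correlation of log2 CPM over the 18 libraries, among 13911 other genes with a mean of at least 1 CPM. For Scx, Sox9 and Runx1 the libraries fall into treated and untreated sets, and the genes most like them had 0.983 to 0.988 over all 18 libraries. The values in parentheses are those within the 9 untreated and the 9 treated libraries. They were not used to rank the genes. Sox9 was most like Sox4 (0.616 untreated, 0.888 treated) and Creb3l1 (0.612 and 0.888). Runx1 was most like Bgn, a matrix proteoglycan gene (0.609 and 0.797), and Has2, a hyaluronan synthase gene (0.747 and 0.533). Scx was most like Pdgfb (0.218 and 0.176) and Ltbp2 (−0.178 and 0.574), a likeness carried by the step between treatments. The values of Sox9 and Runx1 were also lower within each treatment than over all libraries. Among the factors themselves, Scx with Runx1 had −0.0907 in untreated and 0.343 in treated libraries, and Scx with Sox9 0.157 and −0.641.

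Snai1 was most like Hbegf (0.906 untreated, 0.823 treated) and Junb (0.847 and 0.822), both immediate early response genes. Zeb1 was most like Dram2 (0.86 and 0.876) and Wee1 (0.862 and 0.876), and Zeb2 like Cntln (0.931 and 0.931) and Pola1 (0.783 and 0.97). Zeb1 and Zeb2 correlated with each other at 0.545 in untreated and 0.85 in treated libraries. Twist1 was most like Hmga1b (0.705 and 0.937) and Pigp (0.827 and 0.762), and Twist2, after Gm29100, like Tet2 (0.753 and 0.715). Snai2 was most like Slc39a1 (0.576 and 0.834) and Sprr1a (0.808 and 0.591), and Prrx1 like Fdxacb1 (0.817 and 0.699) and Gcat (0.611 and 0.681). Libraries share plasmids, depth and composition, so these values describe the libraries.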

How the data were processed

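MEF RNA was sequenced by the authors as poly(A) paired-end libraries on an Illumina NovaSeq system, from a stranded kit. Per the labels and methods, they used cutadapt for trimming, FastQC for quality, HISAT2 for mapping and StringTie for transcript assembly. The deposited table holds whole-number counts per gene and FPKM values made by the authors. How counts were taken, and whether by strand, is not given in the sources used here. The submitters' processing notes name mm9, but the coordinates of 52506 of the 55450 genes, with all 10 members, equal GENCODE M21 on GRCm38, which the methods point to, and coordinates here are GRCm38.

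Columns were matched to samples by name. One column of each Col1a1-miR-29b group carries a letter that no sample title has. It was used as an unlettered library of its group, counts only, so 2 FPKM columns of per-sample values were not used.

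Counts were tested in R 4.3.3 with edgeR 4.0.16 (filterByExpr, TMM, 1 mean per group, quasi-likelihood F tests over all 18 libraries, Benjamini-Hochberg over 21161 genes, adjusted p under 0.05). Standard errors came from the F statistic. The 95% intervals were normal approximations from these errors, so they are somewhat narrower than the F tests imply. Alternatives were DESeq2 1.42.0, its size factors in edgeR, total-count scaling, filters of 1 count in any or 10 in every library, groups compared alone, a replicate block, leaving out each library, limma 3.58.1 on log2(FPKM + 1) and log2(FPKM + 0.1), and counts divided by 4. A fit without the 2 unlettered libraries was added after the data were seen. The edgeR procedure was tested on simulated counts, for the TGF-β response in empty vector cells only. The other comparisons and methods were not simulated. The 10 members and the gene lists were chosen with earlier results of these data known. Named beside the members are up to 4 rises and 4 falls per list in the averaged response, and the 2 genes most like each member. Gm29100 and Bop1 were followed up as overlapping genes after their values were seen.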

Additional observations from a re-analysis of the deposited data

How the results depend on the processing

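The rises of Scx, Sox9 and Runx1 with each plasmid, and that of Snai1 in the average, kept their direction and stayed past the threshold in every alternative run. As reported, edgeR called 1245, 914 and 1047 genes for TGF-β with the empty vector, Col1a1-miR-29b and CMV-miR-29b, 1327 and 2738 for Col1a1-miR-29b against the empty vector without and with TGF-β, 1 and 2 for CMV-miR-29b against it, 382 and 408 for CMV-miR-29b against Col1a1-miR-29b, and 0 and 0 for the differences in response. The averaged number of factors called ran from 4 to 6. Leaving out 1 library gave 725 to 1428 genes called for TGF-β in empty vector cells, 468 to 1706 for Col1a1-miR-29b against the empty vector without TGF-β and 1291 to 3182 with it, 1 to 5 and 2 to 160 for CMV-miR-29b against the empty vector, 61 to 646 and 40 to 504 for CMV-miR-29b against Col1a1-miR-29b, and 0 to 3 and 0 to 2 for the differences in response. The averaged log2 fold change of Zeb2 ran from −0.0177 to 0.0485, the difference in response of Runx1 with CMV-miR-29b from −0.0324 to 0.186, and 1 to 2 factors were called for Col1a1-miR-29b with TGF-β, Zeb1 joining Zeb2 without empty vector + TGF-β replicate d. The lowest counts came without empty vector + TGF-β replicate e (725 and 1291), empty vector replicate c (468), CMV-miR-29b replicate c (61) and CMV-miR-29b + TGF-β replicate d (40), and the highest (160, 646) without empty vector + TGF-β replicate d. The cause was not tested.

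The averaged log2 fold change of Zeb2 turned to −0.00377 with total-count scaling, −0.00492 with limma on log2(FPKM + 1) and −0.00978 on log2(FPKM + 0.1). Total-count scaling moved the share of higher genes among those called from 65.9% to 53.1% for TGF-β in empty vector cells, from 57.2% to 46.8% in the average, from 40.9% to 51.4% and from 41% to 52.6% for Col1a1-miR-29b against the empty vector without and with TGF-β, and from 55.5% to 43.5% for CMV-miR-29b against Col1a1-miR-29b without it.

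DESeq2 called 2321 genes for Col1a1-miR-29b against the empty vector without TGF-β and 3 factors, 43 and 264 genes for CMV-miR-29b against it without and with TGF-β, 1179 and 1091 genes and 1 factor each for CMV-miR-29b against Col1a1-miR-29b, and 27 and 19 genes for the differences in response. Groups compared alone gave 618 and 527 genes for TGF-β with the empty vector and CMV-miR-29b, 782 and 1072 genes for Col1a1-miR-29b against the empty vector, with 0 factors in the latter, 10 and 7 for CMV-miR-29b against it, 18 and 48 for CMV-miR-29b against Col1a1-miR-29b, and 1 and 1 for the differences. Limma on log2(FPKM + 1) gave 494 genes for TGF-β with Col1a1-miR-29b, 481 and 1752 (0 factors) for Col1a1-miR-29b against the empty vector, 62 and 83 for CMV-miR-29b against Col1a1-miR-29b and 3 for the first difference. On log2(FPKM + 0.1) these were 465, 390, 1633 (0 factors), 56, 41 and 3. A filter of 1 count in any library gave 202 and 180 genes for CMV-miR-29b against Col1a1-miR-29b and 4 for CMV-miR-29b against the empty vector with TGF-β, a filter of 10 in every library gave 0 and 1 for the latter without and with TGF-β, and counts divided by 4 gave 0 and 1, with 1 factor, Snai1, for Col1a1-miR-29b without TGF-β.

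The libraries gave no sign of pairing by the letters of their titles. In 10020 genes, deviations from group means correlated at 0.0149 on average in the 36 same-letter pairs (−0.107 to 0.168) and at −0.0082 in the 70 other pairs. Such correlations cannot show whether libraries with the same letter were handled together. The replicate block, which leaves out the unlettered libraries, gave 394 genes for TGF-β with Col1a1-miR-29b, 161 and 1152 for Col1a1-miR-29b against the empty vector, 29 and 13 for CMV-miR-29b against Col1a1-miR-29b and 2 for the first difference. Zeb2 was then at −0.44 (edgeR adjusted p = 0.0728), with 0 factors called. The same libraries without the block, a fit chosen after the data were seen, gave 453, 397, 1659, 79, 39 and 3 genes, and Zeb2 −0.42 (adjusted p = 0.0447). The member values not printed here changed sign in 131 of 2204 refits and crossed the threshold in none.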
